A study of Mus musculus with 16 samples.

Results

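The genes described here encode the receptor chains for interferons, interleukin 10 (IL-10), IL-12 and IL-23, measured in mouse dendritic cells with and without Ciita. They were chosen by name, as array probe sets whose single gene symbol is Ifngr1, Ifngr2, Ifnar1, Ifnar2, Il10ra, Il10rb, Il12rb1, Il12rb2, Il23r or Il2rg. Of these 10 genes 9 were measured, each by 1 probe set, among 19938 genes tested. Il2rg, the common gamma chain, was not analysed here.

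Sorted dendritic cells were profiled on 16 arrays (Affymetrix Mouse Gene 1.0 ST), and a value is a log2 signal of 1 probe set on 1 array. Cells came from Ciita -/- Zbtb46 GFP/+ mice (KO) and from Ciita +/+ Zbtb46 GFP/+ mice (WT), all of strain B6. Controls too thus had GFP in 1 copy of Zbtb46, which encodes a transcription factor made by classical dendritic cells. From each mouse CD24+ cells, a gate for the cDC1 lineage, and CD172a+ cells, a gate for the cDC2 lineage (CD172a is the product of Sirpa), were put on separate arrays. They were sorted from bone marrow grown for 9 days with 5% Flt3l, to which gamma interferon and then, for 4 hours, lipopolysaccharide (LPS) were added, or from unstimulated spleen. The labels give 16 hours of gamma interferon in one place and 22 hours in another. The 8 groups were cultured CD24+ KO and WT, cultured CD172a+ KO and WT, spleen CD24+ KO and WT and spleen CD172a+ KO and WT, with 2 arrays each from 2 mice. Ciita is the transactivator of the MHC class II genes, and the deleted part of it is not stated in the labels.

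Each of these receptors is a pair of chains that bind janus kinases inside the cell, which on ligand binding phosphorylate STAT transcription factors. Ifngr1 binds gamma interferon and Ifngr2 completes its receptor, Ifnar1 and Ifnar2 form the receptor for type I interferons, and Il10ra pairs with Il10rb for IL-10. Il12rb1 pairs with Il12rb2 for IL-12 and with Il23r for IL-23, while dendritic cells are a known source of both cytokines, whose best studied responders are T cells and natural killer (NK) cells.

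The sequence just before the gene start is shown for the genes with the largest rise and the largest fall in culture, Il23r and Ifngr1, and for Ifnar2 and Ifngr2, which lie near each other and differed alike between the subsets. These are the 250 bases before the annotated start, 5′ to 3′ on the gene's strand, from RefSeq on GRCm38.p6. The windows are chr6:67491856-67492105 on the minus strand for Il23r, chr10:19591699-19591948 on the plus strand for Ifngr1, chr16:91372533-91372782 on the plus strand for Ifnar2 and chr16:91546809-91547058 on the plus strand for Ifngr2. Capitals mark a motif match.
Il23r: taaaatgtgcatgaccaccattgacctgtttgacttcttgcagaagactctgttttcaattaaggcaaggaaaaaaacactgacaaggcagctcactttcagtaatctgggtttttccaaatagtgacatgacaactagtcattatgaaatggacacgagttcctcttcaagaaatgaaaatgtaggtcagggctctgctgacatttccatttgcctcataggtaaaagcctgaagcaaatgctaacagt
Ifngr1: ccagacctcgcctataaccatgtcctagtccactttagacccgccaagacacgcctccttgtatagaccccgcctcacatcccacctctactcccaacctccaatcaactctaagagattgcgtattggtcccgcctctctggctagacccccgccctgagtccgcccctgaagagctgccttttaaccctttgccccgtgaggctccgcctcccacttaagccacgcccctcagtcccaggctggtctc
Ifnar2: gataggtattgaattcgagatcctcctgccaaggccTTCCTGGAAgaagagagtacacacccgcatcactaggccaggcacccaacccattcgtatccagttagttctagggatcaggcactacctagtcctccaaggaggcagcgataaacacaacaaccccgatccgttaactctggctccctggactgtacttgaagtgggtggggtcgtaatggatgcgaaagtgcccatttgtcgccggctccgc
Ifngr2: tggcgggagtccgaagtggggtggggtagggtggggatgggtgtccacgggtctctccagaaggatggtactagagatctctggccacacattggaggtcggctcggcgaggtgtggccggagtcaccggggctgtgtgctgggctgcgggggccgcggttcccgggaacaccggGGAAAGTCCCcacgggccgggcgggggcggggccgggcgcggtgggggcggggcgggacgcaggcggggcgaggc
Both strands were searched for the gamma-activated site bound by STAT dimers (TTCNNNGAA), the core of the interferon-stimulated response element (GAAANNGAAA), the AP-1 site (TGANTCA) and the NF-kB consensus. The capitals in Ifnar2 are a gamma-activated site letter match that begins 214 bases before the start, and those in Ifngr2 an NF-kB consensus match that begins 75 bases before it. The Il23r and Ifngr1 windows held no match. Over 32851 promoter windows the same motifs were found in 7.02, 2.98, 6.75 and 7.25% of windows in the order named, so single matches are common. The Il23r window has 39.6% G and C, against 59.2% in Ifngr1, 54% in Ifnar2, 74% in Ifngr2 and a median of 52.4% over all windows. Promoter windows were found for 7 of the 10 genes. In the same annotation Ifnar2, Il10rb, Ifnar1 and Ifngr2 follow each other in that order on chromosome 16, and Il12rb2 and Il23r are neighbours on chromosome 6. Ifngr1 is on chromosome 10, Il10ra on 9, Il12rb1 on 8 and Il2rg on X.

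The sorts and genotypes were checked against marker genes. The mean of 11 cDC1 markers was 10.85 to 11.21 in cultured CD24+ arrays and 9.01 to 9.27 in cultured CD172a+ arrays, and 12.22 to 12.46 and 8.92 to 9.08 in spleen. The mean of 11 cDC2 markers was 6.83 to 6.94 in cultured CD24+ arrays and 7.11 to 7.34 in cultured CD172a+ arrays, a narrow gap, and 8.01 to 8.16 and 10.26 to 10.35 in spleen. Of these markers, Sirpa read 8.36 to 9.17 in cultured CD24+ and 11.07 to 11.37 in cultured CD172a+ arrays. Irf4 read 8.41 to 9.69 and 10.72 to 10.98, so both separated the cultured subsets. The other cDC2 markers are given only through the mean. Of the cDC1 markers, Irf8 (13.32 to 13.58 and 13.37 to 13.48) and Cd24a (13.00 to 13.16 and 12.98 to 13.05) did not separate the cultured subsets. The mean of 5 general dendritic cell markers was 10.95 to 11.02 in cultured CD24+ and 9.98 to 10.27 in cultured CD172a+ arrays. Of these, Itgax was low in cultured CD172a+ cells (7.86 to 8.66, against 10.86 to 11.08 in cultured CD24+ cells). Zbtb46 went the other way (8.98 to 9.31 in cultured CD172a+ cells, against 8.58 to 9.02 in cultured CD24+ cells). The Ciita probe set passed in no genotype comparison. It read 11.04 in KO and 11.01 in WT spleen CD24+ cells and 11.11 in KO and 11.34 in WT spleen CD172a+ cells, so it does not check the labels in spleen, and 8.92 in KO and 10.68 in WT cultured CD24+ cells (adjusted p = 0.41 by limma) and 7.76 in KO and 10.39 in WT cultured CD172a+ cells (adjusted p = 0.087). Its known targets H2-Ab1, H2-Eb1 and Cd74 fell in KO cells in each tissue and subset by limma, as did H2-Aa except in spleen CD24+ cells (-0.51 ± 0.13, adjusted p = 0.653). Of the cultured CD24+ arrays, KO replicate 2 stood apart. It read 9.58 for the cDC1 marker Xcr1, against 10.41 to 10.87 in the remaining 3, and 9.17 for Sirpa, against 8.36 to 8.43. Of the spleen arrays, CD24+ KO replicate 2 stood apart in the mean of 8 neutrophil markers, at 9.01, against 6.58 to 7.53 in the other CD24+ and 6.37 to 6.89 in the CD172a+ spleen arrays. The mean of 6 monocyte and macrophage markers was 7.86 to 7.88 in spleen CD24+ and 8.79 to 9.05 in spleen CD172a+ arrays, and its part in the spleen subset differences was not tested. Some of the results that rest on the arrays that stood apart are given with and without them, alternatives chosen after seeing the data. Array medians were 6.85 to 6.92 in culture and 7.29 to 7.32 in spleen. In bulk RNA, fewer cells that make a transcript and less transcript per cell cannot be told apart.

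In the subset comparison, 8 of the 9 genes differed between activated CD24+ and CD172a+ cells. Both gamma interferon receptor genes, both type I receptor genes and both IL-10 receptor genes were higher in cultured CD24+ cells, and Il23r and Il12rb2 were lower. In spleen none of the 9 was called higher in CD24+ cells and 4 were lower (Il12rb2, Ifnar2, Il10rb and Ifngr2) in the fit without a block. With the mouse as a block Ifngr1 was also called, higher in spleen CD24+ cells. The same 4 genes were called lower without spleen CD24+ KO replicate 2 (adjusted p from 1.57e-04 to 0.0269 by limma). The call rule is an adjusted p under 0.05 by limma. Of all genes tested 24.9% were called in culture and 29.1% in spleen. The median difference of the 9 genes was 0.69 in culture, against -0.03 over all genes, and -0.03 in spleen, against 0.03 over all genes. The 4 CD24+ and the 4 CD172a+ arrays did not overlap for 7 of the 9 genes in culture and for 5 in spleen, where 22.3% and 33.3% of all genes did not overlap.

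**Figure D1:**
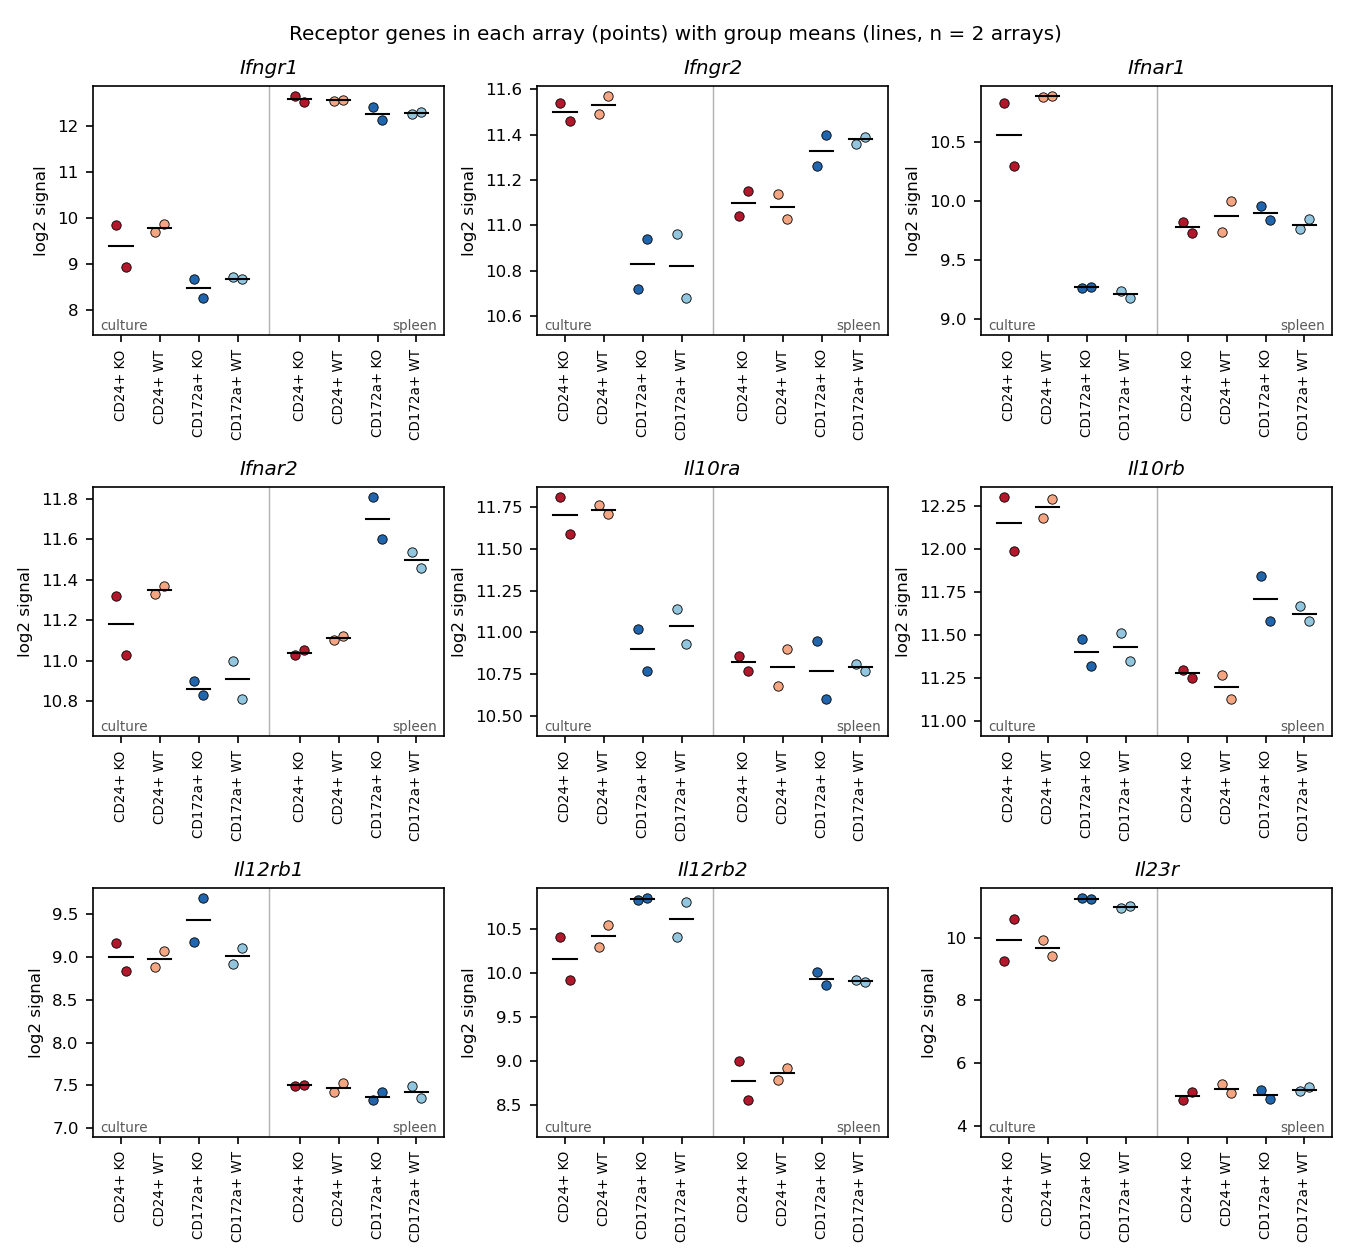
Log2 signal (y axis, own scale in each panel) of the 9 measured receptor genes in each array, grouped on the x axis by tissue, subset and genotype, with lines for the means of 2 arrays. Il23r reads 9.25 to 11.27 in culture and 4.82 to 5.32 in spleen, and Ifngr1 reads 8.26 to 9.87 in culture and 12.12 to 12.64 in spleen.

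The receptor for gamma interferon is taken up here by its chains. Ifngr1, the ligand-binding chain, read 9.85 and 8.93 in cultured CD24+ KO cells and 9.68 and 9.87 in cultured CD24+ WT cells. In cultured CD172a+ cells it read 8.68 and 8.26 in KO and 8.71 and 8.66 in WT. All 4 CD24+ arrays lay above all 4 CD172a+ arrays, with the nearest value in CD24+ KO replicate 2. The means were 9.58 ± 0.44 in CD24+ cells and 8.57 ± 0.21 in CD172a+ cells (SD, n = 4 arrays each), a difference of 1.01 ± 0.16 (SE, adjusted p = 5.34e-04 by limma). Without CD24+ KO replicate 2 it was 1.24 (adjusted p = 1.41e-06).

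In spleen Ifngr1 read 12.64 and 12.51 in CD24+ KO and 12.54 and 12.55 in CD24+ WT cells. It read 12.40 and 12.12 in CD172a+ KO and 12.25 and 12.30 in CD172a+ WT cells. The subsets did not overlap, but the difference of 0.29 ± 0.16 missed the threshold (adjusted p = 0.212 by limma). With the mouse as a block, which is the design of these samples, it passed (adjusted p = 0.0275), and it also passed with the spleen arrays alone (adjusted p = 0.0102).

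Ifngr2, the signalling chain, changed order between the tissues. It read 11.54 and 11.46 in cultured CD24+ KO cells and 11.49 and 11.57 in cultured CD24+ WT cells. In cultured CD172a+ cells it read 10.72 and 10.94 in KO and 10.96 and 10.68 in WT. The CD24+ arrays were tightly grouped and all higher, by 0.69 ± 0.07 (adjusted p = 2.72e-05 by limma). In spleen it read 11.04 and 11.15 in CD24+ KO, 11.14 and 11.03 in CD24+ WT, 11.26 and 11.40 in CD172a+ KO and 11.36 and 11.39 in CD172a+ WT cells. Here all CD24+ arrays were lower, with a difference of -0.26 ± 0.07 (adjusted p = 0.0174), a call that was lost whichever of the 4 spleen mice was left out (adjusted p from 0.0586 to 0.133).

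Of the type I interferon receptor genes, Ifnar1 had the largest subset difference of the 9 genes in culture when all arrays were used. It read 10.83 and 10.30 in cultured CD24+ KO cells and 10.88 and 10.89 in cultured CD24+ WT cells. In cultured CD172a+ cells it read 9.26 and 9.27 in KO and 9.24 and 9.18 in WT. The subsets were over a log2 unit apart at their nearest arrays, and the difference was 1.49 ± 0.10 (2.8-fold, adjusted p = 5.36e-07 by limma). Without CD24+ KO replicate 2 it was 1.62, and that of Il23r was slightly larger in size (-1.66). In spleen the 4 groups overlapped, with 9.82 and 9.73 in CD24+ KO, 9.74 and a higher value in CD24+ WT (9.87 ± 0.18, SD, n = 2), 9.96 and 9.84 in CD172a+ KO and 9.76 and 9.85 in CD172a+ WT cells. The spleen difference was -0.03 ± 0.10 (adjusted p = 0.874).

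Ifnar2, the other chain, was higher in CD24+ cells in culture and lower in CD24+ cells in spleen. It read 11.32 and 11.03 in cultured CD24+ KO, 11.33 and 11.37 in cultured CD24+ WT, 10.90 and 10.83 in cultured CD172a+ KO and 11.00 and 10.81 in cultured CD172a+ WT cells. The nearest arrays, CD24+ KO replicate 2 and CD172a+ WT replicate 1, were almost level, and the difference was 0.38 ± 0.07 (adjusted p = 0.00204 by limma). In spleen it read 11.03 and 11.05 in CD24+ KO, 11.10 and 11.12 in CD24+ WT, 11.81 and 11.60 in CD172a+ KO and 11.54 and 11.46 in CD172a+ WT cells. All CD24+ arrays were lower, with a difference of -0.53 ± 0.07 (adjusted p = 1.28e-04).

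The IL-10 receptor genes also read higher in cultured CD24+ cells. Il10ra, the ligand-binding chain, read 11.81 and 11.59 in KO and 11.76 and 11.71 in WT cultured CD24+ cells, and 11.02 and 10.77 in KO and 11.14 and 10.93 in WT cultured CD172a+ cells. The subsets did not overlap and differed by 0.75 ± 0.09 (adjusted p = 8.65e-05 by limma). In spleen Il10ra lay between 10.68 and 10.90 in CD24+ and between 10.60 and 10.95 in CD172a+ arrays, with full overlap and a difference of 0.02 ± 0.09.

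Il10rb, which also serves as a chain of the receptors for IL-22 and lambda interferon, again had opposite differences in culture and spleen. It read 12.30 and 11.99 in KO and 12.18 and 12.29 in WT cultured CD24+ cells, and 11.48 and 11.32 in KO and 11.51 and 11.35 in WT cultured CD172a+ cells. All cultured CD24+ arrays were higher, by 0.78 ± 0.08 (adjusted p = 2.65e-05 by limma). In spleen it read 11.30 and 11.25 in KO and 11.27 and 11.13 in WT CD24+ cells, and 11.84 and 11.58 in KO and 11.67 and 11.58 in WT CD172a+ cells. There all CD24+ arrays were lower, with a difference of -0.43 ± 0.08 (adjusted p = 0.00181).

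Of the IL-12 and IL-23 receptor genes, Il23r and Il12rb2 were called lower in cultured CD24+ than in cultured CD172a+ cells, with the call of Il12rb2 lost under the settings given with it, and Il12rb1 had no call. Il23r, the chain that only the IL-23 receptor uses, read 9.25 and 10.59 in KO and 9.93 and 9.41 in WT cultured CD24+ cells, and 11.27 and 11.23 in KO and 10.96 and 11.01 in WT cultured CD172a+ cells. The CD24+ arrays were all lower but widely spread, with KO replicate 2 nearest to the CD172a+ arrays. The difference was -1.32 ± 0.22 (adjusted p = 8.11e-04 by limma) and -1.66 without that array (adjusted p = 6.19e-07). In spleen Il23r read 4.82 to 5.32 in CD24+ and 4.86 to 5.22 in CD172a+ arrays, below the lower quartile of those arrays (6.01 to 6.06), with a difference of -0.01 ± 0.22. No detection call was used here, so whether spleen cells had Il23r signal above background is not known.

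Il12rb2, the signalling chain of the IL-12 receptor, read 10.41 and 9.92 in KO and 10.30 and 10.54 in WT cultured CD24+ cells, and 10.83 and 10.85 in KO and 10.41 and 10.81 in WT cultured CD172a+ cells. The subsets overlapped and differed by -0.43 ± 0.13 (adjusted p = 0.0237 by limma), a call that rested on single arrays. It was lost without CD24+ KO replicate 2 (-0.31, adjusted p = 0.0674), without culture KO mouse 2 (-0.30, adjusted p = 0.126) or WT mouse 2 (-0.39, adjusted p = 0.1), and with the culture arrays alone (adjusted p = 0.0684). In spleen it read 9.00 and 8.56 in KO and 8.79 and 8.92 in WT CD24+ cells, and 10.01 and 9.86 in KO and 9.92 and 9.90 in WT CD172a+ cells. The spleen subsets did not overlap, with a difference of -1.11 ± 0.13 (adjusted p = 2.48e-05), the largest spleen difference of the 9 genes.

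Il12rb1, shared by both receptors, overlapped between subsets in both tissues. It read 9.16 and 8.84 in KO and 8.88 and 9.07 in WT cultured CD24+ cells, and 9.18 and 9.69 in KO and 8.92 and 9.11 in WT cultured CD172a+ cells. The difference was -0.23 ± 0.11 in culture (adjusted p = 0.147 by limma) and 0.09 ± 0.11 in spleen. Without culture KO mouse 1 the culture difference was -0.44 and passed (adjusted p = 0.00206). The spleen values were 7.42 to 7.53 in CD24+ and 7.33 to 7.49 in CD172a+ arrays.

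**Figure D2:**
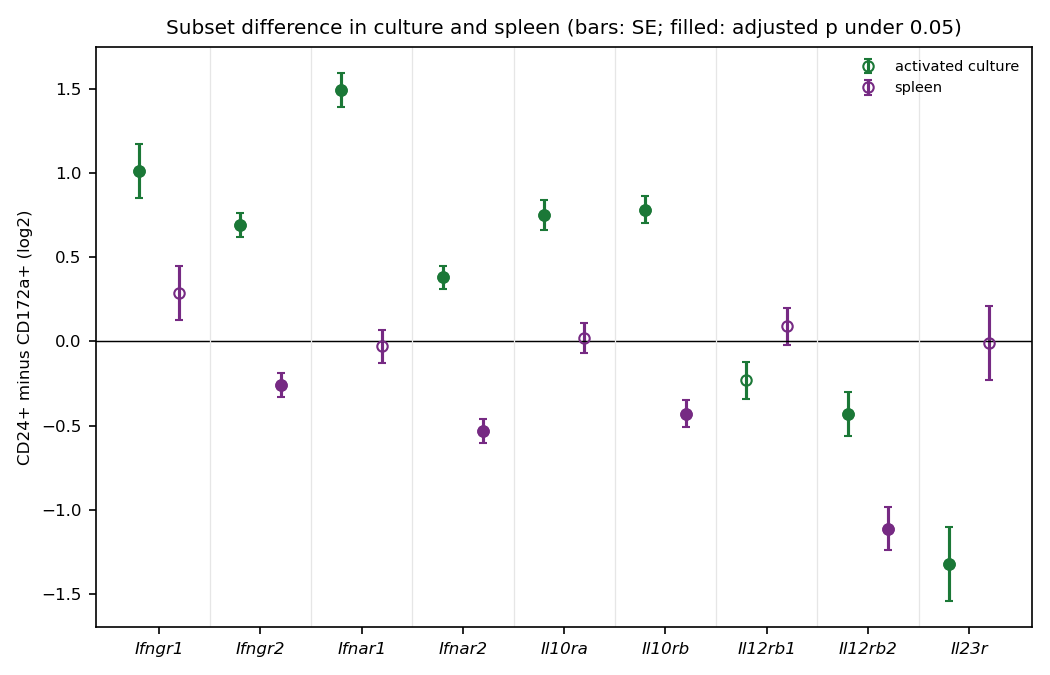
CD24+ minus CD172a+ difference (log2, y axis) of each receptor gene in activated culture (green) and in spleen (purple), averaged over KO and WT, with bars for the SE and filled points for an adjusted p under 0.05. The 6 interferon and IL-10 receptor genes lie between 0.38 and 1.49 in culture, and their spleen differences between -0.53 and 0.29.

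Whether the subset difference itself changed between activated culture and spleen was tested as an interaction. It did for 8 of the 9 genes, 7 towards CD24+ cells and 1, Il23r, towards CD172a+ cells, where 28.2% of all genes were called. Culture minus spleen, the difference was 1.52 ± 0.14 for Ifnar1 (adjusted p = 5.66e-06 by limma), 1.20 ± 0.12 for Il10rb (adjusted p = 1.03e-05), 0.95 ± 0.10 for Ifngr2 (adjusted p = 2.71e-05) and 0.90 ± 0.10 for Ifnar2 (adjusted p = 3.72e-05). For Ifngr2, Ifnar2 and Il10rb the sign turned between the tissues, with a call on each side. The spleen call of Ifngr2 was lost whichever of the 4 spleen mice was left out. How many of all genes turned sign in this way was not counted. Il10ra gave 0.72 ± 0.13 (adjusted p = 0.00123), Ifngr1 0.72 ± 0.23 (adjusted p = 0.033), Il12rb2 0.67 ± 0.18 (adjusted p = 0.0132) and Il23r -1.31 ± 0.32 (adjusted p = 0.00783). The positive value of Il12rb2 is a narrower deficit of CD24+ cells in culture. Il12rb1 gave -0.32 ± 0.15 and did not pass (adjusted p = 0.141).

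All 8 calls held when the 16 arrays were quantile normalized together or each centred on its median, and without cultured CD24+ KO replicate 2. Without spleen CD24+ KO replicate 2, 7 held and Ifngr1 was lost (0.68, adjusted p = 0.0725 by limma). They rested more on single mice for 3 genes. Ifngr1 was lost without any of 6 of the 8 mice (adjusted p from 0.0738 to 0.128), Il23r without spleen KO mouse 2 (adjusted p = 0.0534) or spleen WT mouse 1 (adjusted p = 0.0515), and Il12rb2 without spleen WT mouse 1 (adjusted p = 0.0665). Without culture KO mouse 1 Il12rb1 also passed (-0.53, adjusted p = 0.00264). The gap in the cDC2 marker mean named above was narrow in culture and wide in spleen, and its part in these differences was not tested.

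Activated culture was then set against spleen within each subset. Relative to the median gene, Il23r, Il12rb1 and Il12rb2 were higher in cultured cells of both subsets and Ifngr1 was lower in both. The other interferon and IL-10 receptor genes were higher in cultured CD24+ cells, and of them Ifnar2 was lower in cultured CD172a+ cells under every scaling tried. Culture, activation, tissue of origin and what looks like separate normalization of the tissues cannot be told apart in this comparison. The median of all genes was -0.34 in CD24+ and -0.28 in CD172a+ cells. Culture minus spleen differences from here on are given less that median, unless called deposited or given for another setting. Differences between subsets or genotypes are given as deposited. In the fit as deposited 79.1% of genes were called in CD24+ cells (2750 higher, 13012 lower) and 76.8% in CD172a+ cells (3312 higher, 12000 lower). With each array centred on its median 75.5% (8823 higher, 6221 lower) and 77.8% (9313 higher, 6201 lower) were called. Of the 9 genes 9 were called in CD24+ and 8 in CD172a+ cells, shares that are read against those high backgrounds, so size is the more useful description.

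Il23r averaged 9.80 ± 0.61 in cultured CD24+ cells and 5.06 ± 0.20 in spleen CD24+ cells (SD, n = 4 arrays each). It averaged 11.12 ± 0.15 in cultured CD172a+ cells and 5.07 ± 0.16 in spleen CD172a+ cells. The rise less the median was 5.07 in CD24+ cells and 6.32 in CD172a+ cells (adjusted p of the deposited difference 1.21e-09 and 1.12e-10 by limma). Since spleen readings are not known to lie above background, these are differences of readings and give no fold for the transcript. No culture array overlapped a spleen array, and without cultured CD24+ KO replicate 2 the deposited CD24+ difference was 4.40, against 4.73 with it.

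Il12rb1 averaged 8.99 ± 0.15 in cultured and 7.48 ± 0.05 in spleen CD24+ cells, and 9.22 ± 0.33 in cultured and 7.40 ± 0.08 in spleen CD172a+ cells, a rise less the median of 1.84 and 2.10. Il12rb2 averaged 10.29 ± 0.27 in cultured and 8.82 ± 0.19 in spleen CD24+ cells, and 10.73 ± 0.21 in cultured and 9.92 ± 0.06 in spleen CD172a+ cells, a rise less the median of 1.81 and 1.08. All 3 IL-12 and IL-23 receptor genes thus rose in both subsets. Mean levels of T and NK cell markers, given as deposited and not less the median, were lower in culture. Their part in the receptor values was not tested. The mean of 7 T cell markers was 6.12 to 6.39 in cultured and 7.31 to 7.58 in spleen CD24+ arrays, and 6.06 to 6.36 and 7.34 to 7.45 in CD172a+ arrays. That of 8 NK cell markers was 6.22 to 6.45 in cultured and 7.21 to 7.43 in spleen CD24+ arrays, and 6.19 to 6.35 and 6.82 to 6.89 in CD172a+ arrays.

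Ifngr1 averaged 9.58 ± 0.44 in cultured and 12.56 ± 0.06 in spleen CD24+ cells, and 8.57 ± 0.21 in cultured and 12.27 ± 0.12 in spleen CD172a+ cells. Less the median, it fell by 2.64 in CD24+ cells and fell by 3.42 in CD172a+ cells (adjusted p of the deposited difference 4.08e-09 and 4.95e-10 by limma). No arrays overlapped between the tissues. Its partner Ifngr2 was higher in cultured CD24+ cells. It averaged 11.51 ± 0.05 in cultured and 11.09 ± 0.07 in spleen CD24+ cells, 0.76 higher less the median. It averaged 10.82 ± 0.15 in cultured and 11.35 ± 0.07 in spleen CD172a+ cells, a difference of -0.25 less the median. The CD172a+ fall of Ifngr2 was called as deposited (adjusted p = 2.85e-05 by limma) but not with arrays centred on their medians (-0.13, adjusted p = 0.132).

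Ifnar1 was 1.24 higher less the median in cultured CD24+ cells and read -0.34 in cultured CD172a+ cells. The CD172a+ call was lost under quantile normalization (-0.14, adjusted p = 0.174) and median centring (-0.22, adjusted p = 0.0745). Ifnar2 was 0.52 higher less the median in cultured CD24+ cells and read -0.44 in cultured CD172a+ cells. The deposited CD24+ difference of Ifnar2 was small, 0.19 ± 0.07 (adjusted p = 0.0322), and its call was lost when any of 7 of the 8 CD24+ arrays was left out (adjusted p from 0.0547 to 0.143, with 0.11 without culture KO replicate 1).

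Il10ra was 1.25 higher less the median in cultured CD24+ cells and 0.46 in cultured CD172a+ cells. The CD172a+ value had no call as deposited (0.19 ± 0.09, adjusted p = 0.0835) and a call under quantile normalization (0.41, adjusted p = 0.00138) and median centring (0.58, adjusted p = 1.72e-04). Il10rb was 1.29 higher less the median in cultured CD24+ cells and 0.03 in cultured CD172a+ cells. Its deposited CD172a+ difference of -0.25 ± 0.08 passed (adjusted p = 0.0154), but its sign turned with median centring (0.15, adjusted p = 0.151). It also missed the threshold without any of 4 of the 8 CD172a+ arrays (adjusted p from 0.0513 to 0.074), so no direction is given for Il10rb in CD172a+ cells.

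**Figure D3:**
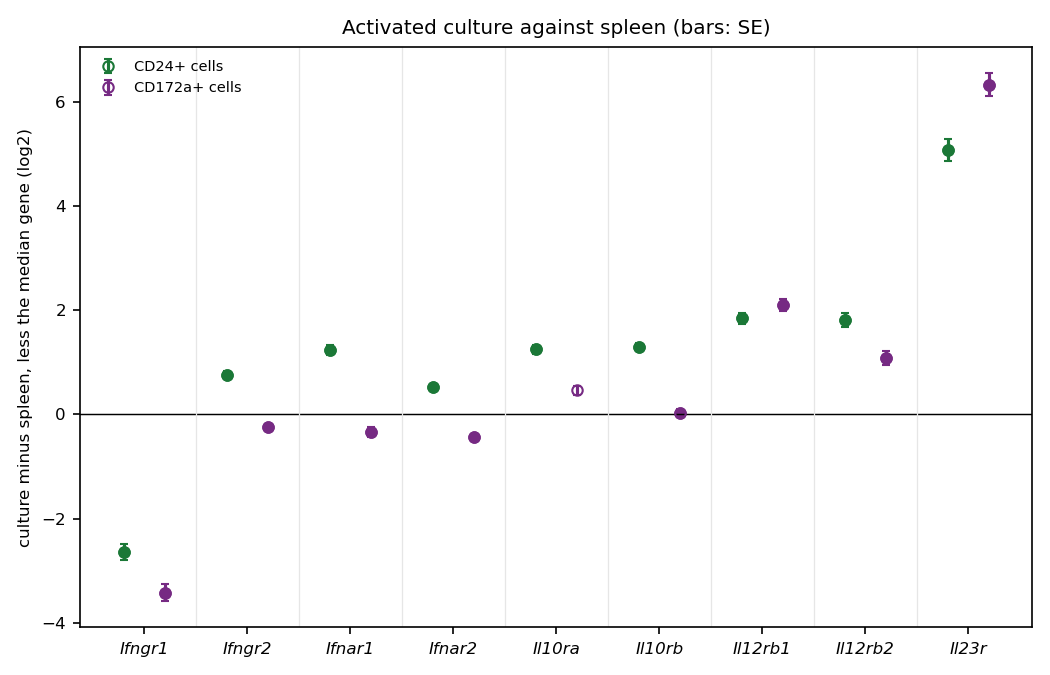
Activated culture minus spleen (log2, y axis), less the median of all genes, for each receptor gene in CD24+ (green) and CD172a+ (purple) cells, with bars for the SE and filled points where the deposited difference passed an adjusted p of 0.05. Il23r reaches 5.07 and 6.32, Ifngr1 lies at -2.64 and -3.42, and Il10rb in CD172a+ cells is at 0.03.

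No receptor gene was called between KO and WT cells by limma in any of the 8 genotype comparisons. The background was small as well: 0.0953% of genes were called in cultured CD24+ cells, 0.0602% in cultured CD172a+ cells, 0.0602% in spleen CD24+ cells and 0.0802% in spleen CD172a+ cells. With the arrays of a mouse averaged it was 0.0652% in culture mice, 0.0752% in spleen mice and 0.0351% over all mice, and 0.01% for the difference of the genotype effect between subsets. KO minus WT differences of the 9 genes ran from -0.39 to 0.25 in cultured CD24+ cells, from -0.21 to 0.42 in cultured CD172a+ cells, from -0.23 to 0.08 in spleen CD24+ cells and from -0.16 to 0.20 in spleen CD172a+ cells, with SE of 0.10 to 0.32. A miss of the threshold with 2 arrays a group does not show that genotypes were equal.

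At an unadjusted p under 0.05 the counts were 1 of 9 in cultured CD24+ cells, in cultured CD172a+ cells, in culture mice and for the genotype by subset difference, and 0 of 9 in the other 4 comparisons. Over all genes the share at that level was 7.05%, 6.63%, 7.74% and 5.13% in those with 1 gene, and 4.12% to 5.5% in the others, so 1 of 9 is near the background. Ifnar1 was the gene in cultured CD24+ cells, at 10.56 ± 0.37 in KO and 10.89 ± 0.00 in WT (SD, n = 2 arrays each), -0.32 ± 0.14 (adjusted p = 0.669), and in the genotype by subset difference, at -0.28 ± 0.11 (adjusted p = 0.941). Without KO replicate 2 the first of these was -0.06. Il12rb1 was the gene in cultured CD172a+ cells, at 9.43 ± 0.36 in KO and 9.01 ± 0.13 in WT, 0.42 ± 0.15 (adjusted p = 0.647), where both KO arrays lay above both WT arrays. In culture mice Il12rb1 gave 0.22 ± 0.07 (adjusted p = 0.577).

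The cultured CD24+ comparison turned on KO replicate 2, the array that stood apart. With KO replicate 1 left out, so that KO replicate 2 was the lone KO array and was assumed to vary like the other groups, 3 genes were called: Ifngr1 (-0.85, adjusted p = 0.0085), Ifnar1 (-0.58, adjusted p = 0.00804) and Il23r (0.92, adjusted p = 0.0142). In that fit 6.36% of all genes were called. With KO replicate 2 left out none was called, and the same genes gave 0.07, -0.06 and -0.42. In culture mice without KO mouse 1, Ifngr1 (-0.63, adjusted p = 0.00895) and Il23r (0.58, adjusted p = 0.0148) were called, as were 6.73% of all genes. KO replicate 2 also had lower Xcr1 and higher Sirpa. The mean of 7 T cell markers was 6.39 in that array, against 6.12 to 6.14 in the other cultured CD24+ arrays, and 6.36 in the CD172a+ array of the same mouse, against 6.06 to 6.16 in the other cultured CD172a+ arrays. That of 8 NK cell markers was 6.45 in the CD24+ array, against 6.22 to 6.31, and 6.35 in the CD172a+ array, against 6.19 to 6.27. In that CD24+ array Il23r read 10.59, the highest of its subset in culture, but Il12rb1 (8.84) and Il12rb2 (9.92) were the lowest. In the CD172a+ array Il12rb1 (9.69) and Il12rb2 (10.85) were the highest of that subset in culture, and Il23r read 11.23, against 11.27 in KO replicate 1. The part of these markers was not tested.

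**Figure D4:**
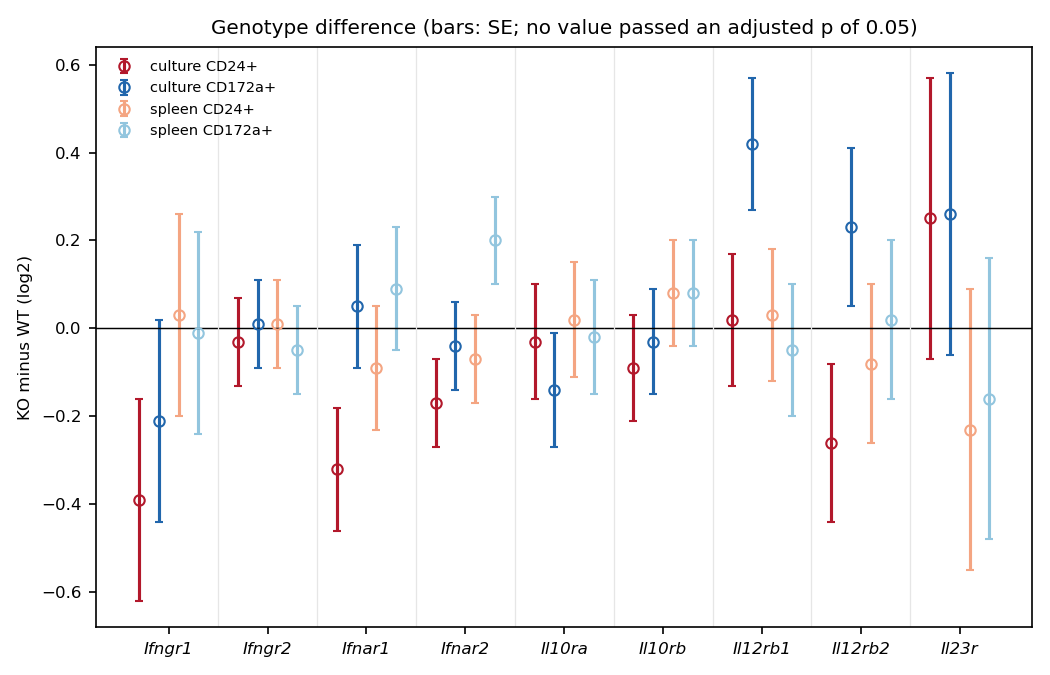
KO minus WT difference (log2, y axis) of each receptor gene in the 4 tissue and subset pairs, with bars for the SE and open points because no value passed an adjusted p of 0.05. The values lie between -0.39 (Ifngr1, cultured CD24+) and 0.42 (Il12rb1, cultured CD172a+).

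The kinases and transcription factors that these receptors use were mostly higher in activated culture. Counts of listed genes against spleen are read beside 79.1% of all genes called in CD24+ and 76.8% in CD172a+ cells, most of them lower as deposited, and counts between subsets beside 24.9% in culture and 29.1% in spleen. Of 12 listed janus kinases, STATs and Irf9, 10 were measured, and 9 rose and 0 fell in each subset, with a median less all genes of 1.64 in CD24+ and 1.13 in CD172a+ cells. Stat4, the transcription factor of IL-12 signalling, averaged 11.70 in cultured and 6.95 in spleen CD24+ cells, and 12.52 in cultured and 10.27 in spleen CD172a+ cells. Its rise less the median was 5.09 and 2.53. Stat2, a partner of Irf9 downstream of the type I receptor, rose by 2.85 and 2.08, and Stat5a by 2.84 and 2.58.

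Between subsets, 8 of these 10 genes were lower and 1 higher in spleen CD24+ cells, and 3 lower and 2 higher in cultured CD24+ cells. Stat4 had the largest difference in spleen (-3.32 ± 0.15, adjusted p = 5.37e-09 by limma) and a smaller one in culture (-0.82 ± 0.15, adjusted p = 0.0015). Tyk2, the kinase bound by Ifnar1, Il10rb and Il12rb1, was higher in CD24+ cells in spleen (0.65 ± 0.07) and culture (0.44 ± 0.07). Jak2, the kinase bound by Ifngr2 and Il12rb2, was lower in spleen CD24+ cells (-0.56 ± 0.06) and higher in cultured CD24+ cells (0.44 ± 0.06). Ifngr2 changed sign in the same way, as did other listed genes such as Ptpn6 and Il4ra, and Il12rb2 did not. A link between Jak2 and Ifngr2 was not tested.

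All 10 negative regulators on the list were measured, and 5 rose and 0 fell in CD24+ cells while 5 rose and 3 fell in CD172a+ cells, with a median less all genes of 1.03 and 0.69. The share called was below the background in CD24+ cells and near it in CD172a+ cells. Socs2, a STAT5-induced inhibitor, rose less the median by 3.58 and 4.26, and Usp18, which restrains the type I receptor at Ifnar2, by 3.53 and 2.76. Socs3, an inhibitor of cytokine receptor signalling, rose by 1.43 and 0.98. Ptpn6, the phosphatase SHP-1, was lower in spleen CD24+ cells (-0.88 ± 0.09) and higher in cultured CD24+ cells (0.58 ± 0.09). Between subsets 1 regulator was higher and 4 were lower in spleen CD24+ cells, and 2 and 2 in cultured CD24+ cells.

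Of 24 listed ligands 21 were measured, of which 9 rose and 8 fell in cultured CD24+ cells and 8 rose and 6 fell in cultured CD172a+ cells as deposited. The share called was near the background in CD24+ cells and below it in CD172a+ cells, and the median less all genes was 0.37 and 0.27. Il12b, the p40 chain that IL-12 and IL-23 share, averaged 13.85 in cultured and 12.11 in spleen CD24+ cells, and 13.60 in cultured and 9.33 in spleen CD172a+ cells. Il23a, the p19 chain of IL-23, averaged 7.29 in cultured and 6.39 in spleen CD172a+ cells and was lower in cultured CD24+ than in cultured CD172a+ cells (-0.54 ± 0.13, adjusted p = 0.00681 by limma), the direction of Il23r. Il12a, the p35 chain of IL-12, was higher in cultured CD24+ cells (0.37 ± 0.10). Il10 averaged 4.48 in cultured and 5.76 in spleen CD24+ cells, and 4.55 in cultured and 6.18 in spleen CD172a+ cells, lower in culture in both subsets. The culture readings lay below the lower quartile of their arrays and were not checked against background, so no fold is given. Ifna1, Ifnl3 and Il22 were not analysed here.

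Target genes were read beside the receptors. Of 12 measured gamma interferon targets, 11 rose and 0 fell in cultured CD24+ cells and 12 rose in cultured CD172a+ cells, where Ifngr1 was lower. Irf1 rose less the median by 3.31 and 3.02, and the chemokine Cxcl10 by 3.47 and 4.53. In cultured cells Ido1, an enzyme of tryptophan breakdown, was higher in the CD24+ subset (2.54 ± 0.23) and Gbp3, a guanylate-binding protein, was lower (-0.85 ± 0.09). In all 2 targets were higher and 3 lower in cultured CD24+ cells, and 6 higher and 4 lower in spleen CD24+ cells. Gamma interferon was added to these cultures. Gbp2 and Igtp were not analysed here.

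Type I interferon targets had the opposite subset order to Ifnar1 in culture. Of 11 measured targets, 6 were lower and 2 higher in cultured CD24+ cells, with a median less all genes of -0.35, and 7 lower and 2 higher in spleen CD24+ cells, with -2.25. Rtp4 read -3.88 ± 0.11 in culture and -4.63 ± 0.11 in spleen, Ifit3 -2.54 ± 0.10 and -3.01 ± 0.10, and Ifit1 -1.34 ± 0.12 and -2.82 ± 0.12. Against spleen 11 rose in cultured CD24+ cells and 9 rose and 1 fell in cultured CD172a+ cells, with Ifit2 at 5.44 and 4.41 less the median. Isg15 and Ifi44 were not analysed here. Of 8 IL-10 targets, 3 were higher and 1 lower in cultured CD24+ cells, and 0 higher and 5 lower in spleen CD24+ cells. The lower one in culture, Nfil3, had the largest called difference there (-0.95 ± 0.23). Etv3 was among the higher ones in culture (0.54 ± 0.06) and read -0.26 ± 0.06 in spleen. Against spleen 4 of the 8 IL-10 targets rose and 3 fell in each subset.

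Among 11 related receptor chains, 1 rose and 8 fell in cultured CD24+ cells and 2 rose and 6 fell in cultured CD172a+ cells as deposited. That is near the background, and the median less all genes was -0.09 and -0.31. Il6ra, the IL-6 binding chain, was lower in culture, at -2.65 and -3.18 less the median. Csf3r, the receptor for G-CSF, was lower at -0.79 and -3.41. Il6st (gp130), which pairs with many such chains, was higher in CD24+ cells in culture (0.81 ± 0.08) and lower in spleen (-0.29 ± 0.08), again the sign change of Ifngr2, Ifnar2 and Il10rb. Of 7 chains that pair with Il2rg, 4 rose and 3 fell in each subset. Il2ra, the alpha chain of the IL-2 receptor, averaged 10.91 in cultured and 6.24 in spleen CD24+ cells, and 11.52 in cultured and 6.38 in spleen CD172a+ cells. Il15ra rose less the median by 2.41 and 3.86, and Il4ra by 2.51 and 1.19. Of the partners that fell, Il2rb was at -1.26 and -0.85 less the median, and Il7r at -1.25 and -1.07. No member of these 8 lists was called by genotype in any of the 8 genotype comparisons. The median KO minus WT difference of the type I interferon targets was 0.37 in spleen mice, 0.26 in spleen CD24+ and 0.43 in spleen CD172a+ cells, against 0.08 in culture mice and 0.00 over all genes. This list was singled out after its values were seen. Its genes were read in the same 2 mice per tissue and genotype, and its median was not tested. Ifit2 averaged 8.27 in KO and 7.67 in WT spleen mice, a difference of 0.60 ± 0.07 (adjusted p = 0.0669 by limma). Ifit3 averaged 11.17 in KO and 10.29 in WT spleen CD172a+ cells, a difference of 0.87 ± 0.15 (adjusted p = 0.0741).

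The genes most alike in pattern were found by Pearson's r over the 16 arrays, each value less the mean of its tissue. These values carry no test, since the arrays share mice and subsets. Ifnar1 was closest to Kdm7a, a histone demethylase (r = 0.988), Cyb561a3 (0.987) and Cdc14a, a phosphatase (0.985). Ifngr1 was closest to Map4k1 (0.983), Cops3 (0.977) and Rrbp1 (0.976), and Ifngr2 to Cib1 (0.97), Map3k14, the kinase NIK (0.967), and Abr (0.963). Ifnar2 was closest to Rapgef1 (0.965), Ccnd1, cyclin D1 (0.961), and Zfand5 (0.959). Il10rb was closest to Gsn, gelsolin (0.975), Mical1 (0.972) and Haao (0.965), and Il10ra to Sgk1, a kinase (0.961), Rasgrp4 (0.953) and Gm2a (0.953). Il23r was closest to Sbf2 (0.967), Gas5, a non-coding RNA (0.967), and Dgka (0.964), and Il12rb2 to Ccrl2, a chemerin-binding receptor (0.952), Cybb, the NADPH oxidase subunit (0.948), and Emb (0.945). Il12rb1 had no close match, with Chrna1 (0.833), Fam216b (0.831) and Ddx31 (0.828) nearest.

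Among the receptor genes themselves, Ifnar1 and Il10ra (r = 0.939), Ifngr2 and Il10rb (0.909) and Ifngr1 and Il10ra (0.9) were most alike on the same measure. Il23r ran opposite to Ifnar1 (-0.911), Ifngr1 (-0.911) and Il10ra (-0.857). The chains of 1 receptor were not always the closest. Il10ra with Il10rb gave 0.834, Ifngr1 with Ifngr2 0.65 and Ifnar1 with Ifnar2 0.604. Il12rb1 gave 0.264 with Il23r and 0.181 with Il12rb2.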

How the data were processed

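Sorted mouse dendritic cells gave 16 arrays, 8 groups of 2. Per the labels, total RNA (EZNA MicroElute kit, DNase treatment) was amplified by Ovation Pico WTA, and source names tie both arrays of a sort to 1 mouse. The deposited values are log2 signals made by the authors. Their background correction, normalization and summarization are not given in the sources used here. Quartiles were alike within a tissue and differed between tissues, as if each tissue had been normalized by itself, and no detection call was used here. The number of arrays limits the precision.

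Of 30177 probe sets 21789 had 1 symbol, 21698 of them named through the Entrez ID, 1621 had several and 6767 had none. Where a gene had several probe sets (999 genes) the one with the highest mean was used, which left 19938 genes. No 2 arrays were identical (highest r 0.9973). Promoter sequence and gene order are RefSeq's, on GRCm38.p6.

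Tests used limma 3.58.1 in R 4.3.3, 2-sided, with Benjamini-Hochberg adjustment over all genes and a threshold of 0.05. All 16 arrays were fitted with a mean for every group, with 8 residual and 3.95 prior degrees of freedom, which gave genotype effects, subset differences, their difference between tissues, and culture minus spleen. That fit ignores that a mouse gave 2 arrays. Fits on mouse means and on the difference within each mouse gave the other genotype comparisons. No KO mouse was paired with a WT mouse. As a check, the correlation over genes of the deviations of a mouse's arrays from their group means was 0.393 in culture KO, 0.205 in culture WT, 0.202 in spleen KO and -0.0957 in spleen WT. The fits were tested on simulated data.

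Alternatives were quantile normalization, median centring, leaving out the dimmest 25% of genes, all probe sets, mean over probe sets, arrays of 1 tissue, a mouse or replicate block, a trended robust prior and leaving out each array or mouse. The receptor genes and gene lists were chosen with earlier results of these data known. All receptor genes are named. From each list, the genes named are among the up to 6 called ones with the largest difference, and for each receptor gene the 3 genes with the highest correlation.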

Additional observations from a re-analysis of the deposited data

Results flagged for a closer look

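For 8 receptor genes the CD24+ minus CD172a+ difference differed between activated culture and spleen, by the interaction term of limma. The value, culture minus spleen, was 1.52 for Ifnar1, 1.20 for Il10rb, 0.95 for Ifngr2, 0.90 for Ifnar2, 0.72 for Il10ra, 0.72 for Ifngr1, 0.67 for Il12rb2 and -1.31 for Il23r. Groups of 2 arrays were too small for a test of outlying arrays.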

How the results depend on the processing

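Of 1503 receptor gene values recomputed under other settings, 1456 kept their direction and side of the threshold or had no call in both, 33 lost and 13 gained a call, and 1 reversed. Of the 951 without a call in both, 86 turned sign. The reversal was Il10rb, culture minus spleen in CD172a+ cells, at 0.15 with each array centred on its median. With arrays or mice left out, called receptor genes numbered 0 to 3 between genotypes in cultured CD24+ cells, 0 to 2 in culture mice and 5 to 9 for the subset difference between tissues, the lowest without spleen WT mouse 1. Those fits hold fewer samples, and the cause was not tested otherwise. In cultured minus spleen CD172a+ cells Il10ra gained a call without culture KO replicate 2 (0.25) or spleen KO replicate 1 (0.27).

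With the mouse as a replicate block, 5 receptor genes were called between spleen subsets, against 4 without it, the added one being Ifngr1 (0.29, adjusted p = 0.0275 by limma). The block changed no other receptor call. KO and WT mice share only a number, and with that number as a replicate block 0 receptor genes were called in each tissue and subset.

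Counts over all genes moved by more than 1.5 times in genotype comparisons. Main counts of 19, 12, 12 and 16 in cultured CD24+, cultured CD172a+, spleen CD24+ and spleen CD172a+ cells were 7, 7, 0 and 9 with the replicate number as a block. With the culture arrays alone they were 4 and 7 in the cultured pairs, and with all probe sets 21 and 25 in the spleen pairs. With arrays left out they ranged up to 1269 in cultured CD24+ cells (without KO replicate 1, and 10 without WT replicate 2), from 7 to 45 in cultured CD172a+ and from 1 to 35 in spleen CD24+ cells. Counts of 13 in culture mice, 15 in spleen mice, 7 in all mice and 2 for genotype by subset ranged from 5 to 1341, from 1 to 7, from 4 to 11 and down to 1 where they moved so far.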
